A study of Mus musculus with 36 samples.

Results

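The genes examined here encode 10 subunits of the nucleosome remodelling and deacetylase (NuRD) complex: Chd4, Chd3, Hdac1, Hdac2, Mta1, Mta2, Mta3, Mbd3, Rbbp4 and Gatad2a. They were chosen by name, as the rows of the deposited expression table that carry these symbols, and the rule uses no measured value. All 10 are among the 12762 genes of the table, and all 10 were tested, since no filter on low values was applied. Expression was measured by stranded mRNA-seq in 36 libraries of the mouse pre-B cell line B3, which models a dividing early stage of B cell development. Libraries came from 2 derivatives of B3 at 0, 2, 6, 12, 18 and 24 h, with n = 3 libraries in each of the 12 groups.

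NuRD is a chromatin complex that joins an ATP-dependent nucleosome remodeller to histone deacetylases. Chd4 or Chd3 supplies the ATPase, Hdac1 and Hdac2 remove acetyl groups from histones, the Mta proteins form the scaffold that holds the deacetylases, Rbbp4 and Rbbp7 bind histones, Gatad2a and Gatad2b bridge the remodeller to the rest, and Mbd2 or Mbd3 is the methyl-CpG-binding-domain subunit. Paralogs replace each other at several of these places, so cells can hold different assemblies. Ikaros, the zinc finger protein encoded by Ikzf1, is known to associate with NuRD in lymphocytes, where it is required for B and T cell development.

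The Ikaros cells carried an MSCV retrovirus encoding HA-tagged Ikaros fused to the hormone-binding domain of the estrogen receptor (HA-Ikaros-ERt2-IRES-GFP), and the control cells carried the same vector with ERt2 but no Ikaros. In both, cells that expressed GFP were sorted and expanded, so each is a sorted transduced population and the transgene is driven by the viral promoter. The drug 4-hydroxy-tamoxifen (4-OHT, 0.5 uM), which sends the fusion protein to the nucleus, was given to both derivatives. The labels list 4-OHT for the 0 h libraries as well, whereas the methods of the study describe 0 h cells as untreated and collected on separate occasions, so every comparison with 0 h also compares collection occasions. Culture batches 1, 2 and 4 gave the 0 h libraries, and batches 1, 3 and 4 gave the later ones. Values below are log2 expression after the authors' correction for GC content and gene length, so levels of different genes are on a scale adjusted for length, and they include a constant that is the same for all genes and libraries. How deeply each library was sequenced cannot be read from them.

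Ikzf1 separated the labels in all 36 libraries, with control levels between 13.95 and 14.85 and Ikaros levels between 19.63 and 20.93. Of the markers of a pre-B cell, 12 of 12 were measured, and Cd79a, a chain of the B cell receptor complex, stood above 99.5% of all genes on the mean of all libraries. Of the markers of other blood cells, 0 of 8 T cell, 2 of 8 myeloid and 3 of 5 erythroid genes were measured, with library means between 4.83 and 7.91 for the myeloid pair and between 5.69 and 7.24 for the erythroid genes.

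Promoter sequence from RefSeq (GRCm38.p6) matched 7 of the 10 members, with 9 start sites, and Chd3, Hdac1 and Mta3 are named only. The 250 bases before each start were searched on both strands for 4 motifs, namely the core of the Ikaros site (TGGGAA), an E2F site (GCGGGAA), an E-box (CACGTG) and an ETS site (CCGGAAG). These occur in 21.6%, 3.82%, 6.02% and 6.91% of all 32851 promoters. Shown here, 5′ to 3′ on the strand of the gene and with motif matches in capitals, are the bases before starts of Chd4, Hdac2 and Gatad2a, which are 3 of the 4 members with lower mRNA in Ikaros cells at 24 h. They are shown as examples with and without a match, and the fourth, Mbd3, is left out because its window runs into the annotated transcript. The Ikaros core was found before 1 of the 9 starts, the inner start of Gatad2a. For Chd4 they span chr6:125095831-125095980 on the plus strand, and for Hdac2 chr10:36974394-36974543 on the plus strand. For Gatad2a, on the minus strand, they span chr8:69996385-69996634 for the upstream start and chr8:69974384-69974533 for the inner start.
Chd4: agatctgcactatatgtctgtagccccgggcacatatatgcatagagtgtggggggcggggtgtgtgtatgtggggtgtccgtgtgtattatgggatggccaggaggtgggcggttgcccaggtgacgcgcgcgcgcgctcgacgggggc
Hdac2: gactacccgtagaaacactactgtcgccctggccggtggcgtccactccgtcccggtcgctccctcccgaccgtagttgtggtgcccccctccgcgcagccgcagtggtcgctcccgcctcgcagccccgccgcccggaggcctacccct
Gatad2a, upstream start: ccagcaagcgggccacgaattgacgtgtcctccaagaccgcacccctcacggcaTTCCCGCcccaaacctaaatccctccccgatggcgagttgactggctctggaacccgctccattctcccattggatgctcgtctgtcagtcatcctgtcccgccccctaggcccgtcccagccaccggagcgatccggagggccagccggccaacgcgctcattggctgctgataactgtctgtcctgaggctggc
Gatad2a, inner start: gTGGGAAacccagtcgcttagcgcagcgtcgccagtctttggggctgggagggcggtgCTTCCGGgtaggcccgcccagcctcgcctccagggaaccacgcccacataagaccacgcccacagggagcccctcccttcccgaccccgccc
The Chd4 and Hdac2 stretches hold none of the 4 motifs. Before the upstream start of Gatad2a 1 E2F match begins at position -196, counted from the start. Before its inner start, which lies within the gene, an Ikaros core begins at -149 and an ETS match at -92. Among the promoters not shown, Rbbp4 has an E-box at -224, Mta2 has 2 overlapping ETS matches on opposite strands, and Mta1, Mbd3 and the other start of Chd4 have no match. These are matches of letters in a window and not measured binding sites.

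NuRD members called between Ikaros and control cells went from 1 at 0 h to 8 at 18 h and 7 at 24 h, while the share of all genes called rose from 8.33% to 62.9%. Members called up to 6 h were higher in Ikaros cells, and from 12 h on some were lower. At 0 h 1 of 10 was called (limma, adjusted p under 0.05), which was Mta1 and was higher, beside 8.33% of all genes called and 4.61% called higher. At 2 h 4 members were called, all higher (Chd3, Hdac1, Mta1 and Mta3), beside 19.1% of all genes called and 9.18% called higher. The same 4 and Rbbp4 made 5 at 6 h, again all higher, where 37.3% of all genes were called and 18.1% called higher. At 12 h 4 were higher and Chd4 and Gatad2a were lower, and the background was 45.8% called, 23.0% higher and 22.8% lower. At 18 h 4 were higher and 4 lower, the latter being Chd4, Hdac2, Mbd3 and Gatad2a, beside 58.2% called, 29.0% higher and 29.2% lower. At 24 h Chd3, Hdac1 and Mta3 were higher and the same 4 genes lower, beside 62.9% called, 31.0% higher and 31.9% lower. From 6 h on, the 5, 6, 8 and 7 members called stand beside backgrounds of 37.3%, 45.8%, 58.2% and 62.9%, so the share called at 24 h is close to that of all genes. At 24 h the libraries of the lines did not overlap for 8 of 10 members, and for 71.0% of all genes. The counts at several times fell when 1 replicate was left out, in fits that hold fewer libraries. At 6 h 2 were called without replicate 1 and 3 without replicate 2. At 18 h 5 were called without replicate 1 and 5 without replicate 2, and at 24 h 4 without replicate 2. In fits of the compared groups alone 1 was called at 2 h and 2 at 6 h. The shares of all genes called in these alternative fits are not given here, so a loss particular to the members cannot be read from these counts.

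**Figure D1:**
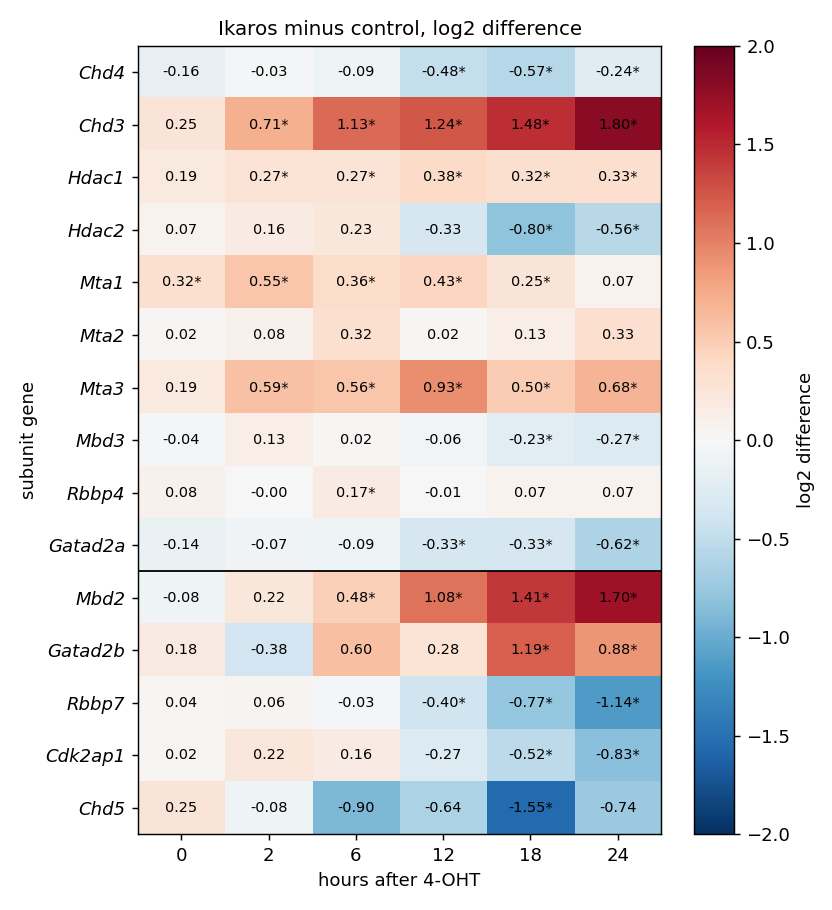
Log2 difference between Ikaros and control cells for 15 NuRD subunit genes (rows) at 6 times in hours after 4-OHT (columns), with colour from blue (lower in Ikaros cells) to red (higher) and an asterisk where adjusted p was under 0.05. The 10 members stand above the line and 5 further subunits below it; Chd3 and Mbd2 reach 1.80 and 1.70 at 24 h, and Rbbp7 reaches -1.14.

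Chd3 rose the most of the 10, while Chd4, its counterpart as the ATPase of the complex, was lower at the late times. Chd3 (ENSMUSG00000018474, GRCm38 chromosome 11, 69343273 to 69369406, minus strand) read 13.93, 13.77 and 13.45 in the control libraries at 0 h and 13.96, 14.21 and 13.73 in the Ikaros libraries, which overlapped. At 2 h the control libraries read 13.54, 13.59 and 13.64 and the Ikaros libraries 14.29, 14.19 and 14.43, and from then on the lines did not overlap. By 24 h the control libraries were at 13.81, 13.61 and 13.58, within their range at 0 h, and the Ikaros libraries at 15.45, 15.49 and 15.46. The Ikaros minus control difference of Chd3 grew from 0.25 ± 0.11 (SE) at 0 h, which was not called, through 0.71, 1.13, 1.24 and 1.48 at 2, 6, 12 and 18 h to 1.80 ± 0.11 at 24 h. The last is 3.48-fold (adjusted p = 6.88e-14), and within culture batches it lay between 1.63 and 1.88.

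Chd4 (ENSMUSG00000063870, GRCm38 chromosome 6, 125095981 to 125130591, plus strand) was the highest subunit in both lines at 0 h, above 96.8% of all genes in control and 96.3% in Ikaros cells. Its libraries overlapped at 0, 2 and 6 h. At 12 h Chd4 read 15.97, 15.93 and 16.03 in control and 15.64, 15.50 and 15.35 in Ikaros libraries. At 18 h the control values were 15.97, 16.18 and 15.92 and the Ikaros values 15.37, 15.45 and 15.53, a difference of -0.57 ± 0.10, or 1.49-fold lower (adjusted p = 2.52e-05). Every Ikaros library was below every control library at both times. The gap was smaller at 24 h, with control values of 15.84, 15.88 and 15.71 against 15.52, 15.57 and 15.64, a difference of -0.24 ± 0.10 (adjusted p = 0.0457). The call at 24 h was lost without replicate 1 (adjusted p = 0.217) or replicate 2 (adjusted p = 0.313), and in a fit of the 24 h groups alone (adjusted p = 0.0681).

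**Figure D2:**
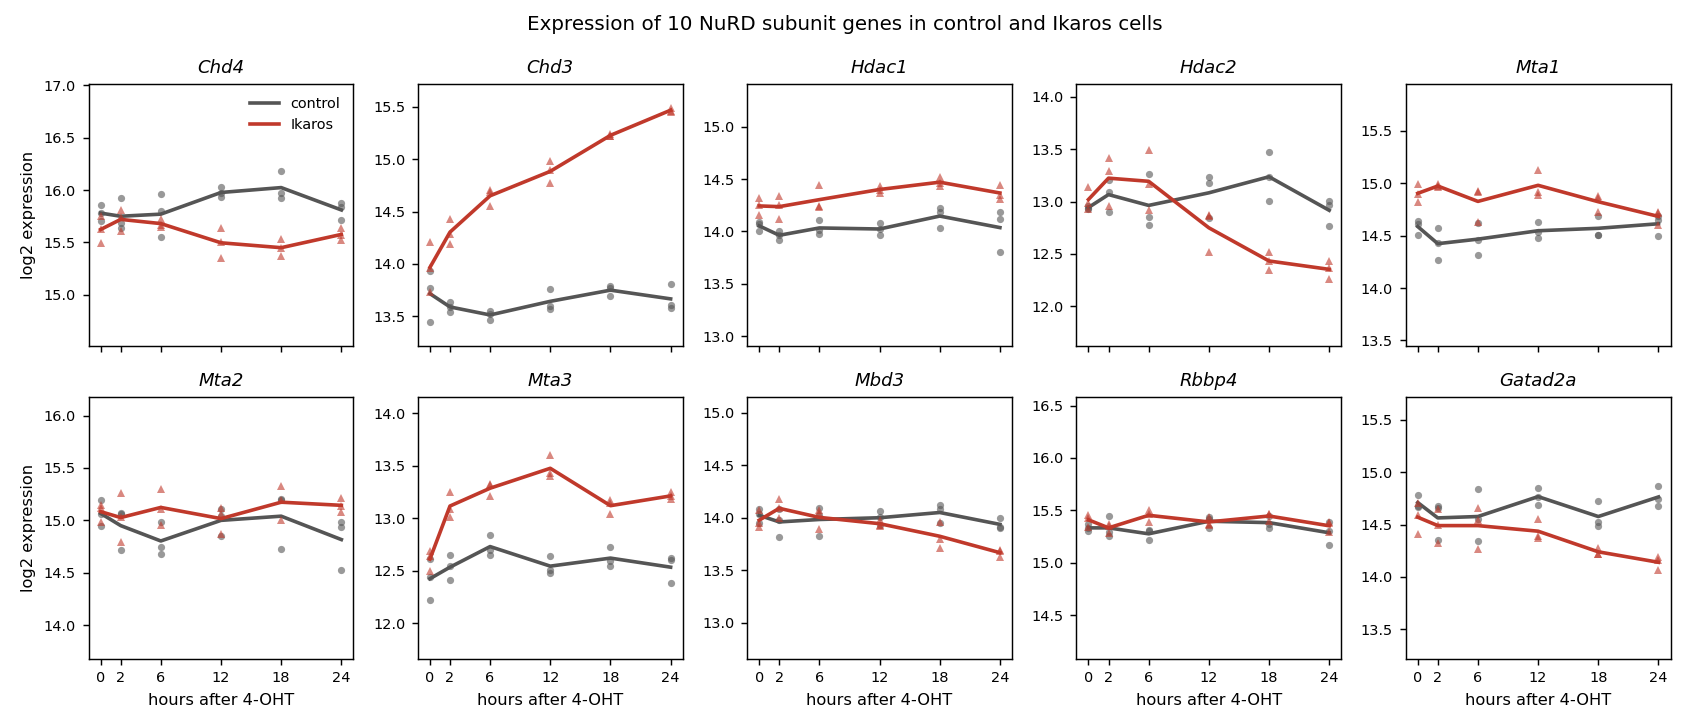
Log2 expression (vertical axes, each spanning the same log2 range) of the 10 NuRD members against hours after 4-OHT, with control libraries as grey circles, Ikaros libraries as red triangles and group means as lines, n = 3 each. Chd3 climbs in Ikaros cells from a mean of 13.96 to 15.47, while Hdac2 falls there from 13.02 to 12.35 and Rbbp4 stays between 15.33 and 15.45.

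The histone deacetylases moved apart, with Hdac1 higher in Ikaros cells and Hdac2 lower at the last times. Hdac1 (ENSMUSG00000028800, GRCm38 chromosome 4, 129516104 to 129542713, minus strand) was already at 14.16, 14.32 and 14.25 in Ikaros libraries at 0 h against 14.09, 14.07 and 14.00 in control libraries, a difference of 0.19 ± 0.09 that was not called (adjusted p = 0.223). At 12 h the control libraries read 14.08, 14.02 and 13.97 and the Ikaros libraries 14.43, 14.40 and 14.37, which is 1.30-fold higher (0.38 ± 0.09, adjusted p = 0.000687). The lines did not overlap at any of the 6 times, and the called differences from 2 to 24 h lay between 0.27 and 0.38. Those at 2, 6 and 24 h were less secure. At 2 and 6 h the call was lost without replicate 1 (adjusted p = 0.271 and 0.173) or replicate 2 (adjusted p = 0.310 and 0.162), and at 24 h without replicate 3, where the difference fell to 0.18 (adjusted p = 0.0686). The control library of replicate 3 was the lowest at 24 h, at 13.80 against 14.12 and 14.19.

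Hdac2 (ENSMUSG00000019777, GRCm38 chromosome 10, 36974544 to 37001889, plus strand) overlapped between the lines from 0 to 12 h, and its differences there ran from 0.07 to 0.23 up to 6 h and then to -0.33 at 12 h, none of them called. The 12 h difference was called with separate blocks for the culture batches and the 0 h cultures (adjusted p = 0.0472). At 18 h the control libraries read 13.01, 13.23 and 13.47 and the Ikaros libraries 12.43, 12.35 and 12.52, so Hdac2 was 1.74-fold lower (-0.80 ± 0.15, adjusted p = 5.93e-05). At 24 h it read 12.97, 13.01 and 12.77 against 12.26, 12.37 and 12.43, a difference of -0.56 ± 0.15 (adjusted p = 0.00229, and 0.0505 without replicate 2). The 3 Ikaros libraries were the lower ones at both times.

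Of the 3 Mta scaffold genes, Mta3 was raised from 2 h on and Mta2 did not pass the test at any time. Mta1 was called higher in Ikaros cells already at 0 h and up to 18 h, and its lines overlapped at 24 h. Mta3 (ENSMUSG00000055817, GRCm38 chromosome 17, 83706163 to 83821516, plus strand) is the lowest of them, above 62.1% of all genes in control cells at 0 h, where its lines overlapped. At 2 h it read 12.54, 12.41 and 12.65 in control and 13.01, 13.09 and 13.25 in Ikaros libraries. Its difference was greatest at 12 h, with 12.51, 12.48 and 12.64 against 13.43, 13.40 and 13.60, which is 1.91-fold (0.93 ± 0.10, adjusted p = 1.34e-08). At 24 h it was 0.68 ± 0.10, and the lines did not overlap at any time from 2 h on. A fit of the 2 h groups alone did not keep the call at 2 h (adjusted p = 0.0599).

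Mta1 (ENSMUSG00000021144, GRCm38 chromosome 12, 113098278 to 113137206, plus strand) was the member that differed at 0 h, at 14.64, 14.61 and 14.51 in control and 14.82, 14.99 and 14.90 in Ikaros libraries (0.32 ± 0.10, adjusted p = 0.0371). Leaving out any replicate took that call away, with adjusted p = 0.134, 0.433 and 0.208 without replicates 1, 2 and 3. At 2 h Mta1 was 1.46-fold higher, with control values of 14.27, 14.57 and 14.43 against 14.99, 14.97 and 14.96 (0.55 ± 0.10, adjusted p = 0.000144, and 0.0647 in a fit of these groups alone). The difference was then 0.36, 0.43 and 0.25 at 6, 12 and 18 h. The call at 6 h was lost without replicate 1 (adjusted p = 0.192), and that at 18 h without any replicate (adjusted p = 0.0868, 0.0800 and 0.194). At 24 h the control libraries read 14.50, 14.69 and 14.65 and the Ikaros libraries 14.60, 14.73 and 14.72, which overlap, and the difference of 0.07 had a 95% interval from -0.13 to 0.27.

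Mta2 (ENSMUSG00000071646, GRCm38 chromosome 19, 8941875 to 8952303, plus strand) had differences between 0.02 and 0.33, all toward higher in Ikaros cells. At 24 h its control libraries read 14.94, 14.98 and 14.53 and its Ikaros libraries 15.08, 15.14 and 15.21, without overlap, and the difference of 0.33 ± 0.14 missed the threshold (adjusted p = 0.0525). In the fit with culture batches as a replicate block it passed at 24 h (adjusted p = 0.0311) and at 6 h (adjusted p = 0.0481, against 0.0810 without the block). The control library of replicate 3 was the lowest at 24 h, and without replicate 3 the 24 h difference was 0.15 (adjusted p = 0.237).

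Mbd3 was slightly lower in Ikaros cells at 18 and 24 h, while Mbd2, which takes its place in other NuRD assemblies and binds methylated DNA, rose more than 3-fold. Mbd3 (ENSMUSG00000035478, GRCm38 chromosome 10, 80392539 to 80399550, minus strand) read 13.90, 14.00 and 13.91 in control and 13.68, 13.63 and 13.69 in Ikaros libraries at 24 h, a difference of -0.27 ± 0.08 or 1.20-fold (adjusted p = 0.00739). At 18 h the difference was -0.23 ± 0.08 (adjusted p = 0.0209) and the libraries overlapped. Both calls were lost without replicate 2 (adjusted p = 0.245 at 18 h and 0.199 at 24 h) and after removal of a GC and length trend (0.110 and 0.167), and that at 18 h also without replicate 1 (0.0798). Mbd2 read 13.53, 13.56 and 13.38 in control and 13.28, 13.55 and 13.39 in Ikaros libraries at 0 h. At 24 h it read 13.50, 13.75 and 13.57 against 15.14, 15.40 and 15.39, a 3.25-fold rise (1.70 ± 0.12, adjusted p = 1.93e-12). Its difference went from -0.08 and 0.22 at 0 and 2 h to 0.48, 1.08 and 1.41 at 6, 12 and 18 h, and it was called from 6 h on. The call at 6 h was lost without replicate 1 (adjusted p = 0.0720).

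Rbbp4 was the member that moved least, and its paralog Rbbp7 fell. Rbbp4 (ENSMUSG00000057236, GRCm38 chromosome 4, 129307100 to 129335370, minus strand) stayed between 15.17 and 15.50 in all 36 libraries. At 6 h the control libraries read 15.31, 15.30 and 15.22 and the Ikaros libraries 15.50, 15.47 and 15.39, a difference of 0.17 ± 0.07 at the edge of the threshold (adjusted p = 0.0493). That call was lost without each of the replicates (adjusted p = 0.278, 0.270 and 0.0868). At 24 h its difference was 0.07, with a 95% interval from -0.07 to 0.21. Rbbp7 read 14.96, 15.00 and 14.99 in control and 13.78, 13.96 and 13.80 in Ikaros libraries at 24 h, a 2.20-fold fall (-1.14 ± 0.07, adjusted p = 4.14e-13). Its difference was -0.03, -0.40 and -0.77 at 6, 12 and 18 h, and at the last 3 times the lines did not overlap. Rbbp7 overlaps Txlng, a measured gene on the opposite strand, and the strand setting of the counting is not given in the sources used here. Chd3 and Chd4 each overlap a measured small RNA gene on their own strand, Gm22442 and Gm23751.

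Gatad2a, which joins the methyl-CpG-binding subunit to the remodeller, was lower from 12 h on. Gatad2a (ENSMUSG00000036180, GRCm38 chromosome 8, 69907076 to 69996384, minus strand) read 14.68, 14.67 and 14.78 in control and 14.59, 14.41 and 14.71 in Ikaros libraries at 0 h, and at 24 h 14.68, 14.74 and 14.87 against 14.16, 14.19 and 14.07. The 24 h difference of -0.62 ± 0.12 is 1.54-fold (adjusted p = 6.14e-05), and within culture batches it lay between -0.79 and -0.51. Those at 12 and 18 h were both -0.33 ± 0.12 (adjusted p = 0.0256 and 0.0181) and were lost without replicate 1 (0.219 and 0.186) or replicate 2 (0.121 and 0.0901), although the lines did not overlap. Its paralog Gatad2b was called higher than in control cells at 18 h (1.19 ± 0.38, adjusted p = 0.00833) and 24 h (0.88 ± 0.38, adjusted p = 0.0445), with a much wider spread. Neither line was called against its own 0 h at these times, with Gatad2b at 0.32 ± 0.38 in Ikaros cells at both. In control cells Gatad2b was at -0.69 ± 0.38 at 18 h and -0.37 ± 0.38 at 24 h. At 18 h it read 12.93, 12.30 and 11.51 in control and 13.61, 13.42 and 13.27 in Ikaros libraries. The call at 18 h was lost without replicate 2 (adjusted p = 0.0960), and that at 24 h without replicate 1 (0.112), without replicate 2 (0.159) and after removal of a GC and length trend (0.0704).

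The remaining subunits were Cdk2ap1, a small protein also known as an inhibitor of Cdk2, and Chd5, a remodeller best known from neurons. Cdk2ap1 read 12.22, 12.35 and 11.97 in control and 11.31, 11.19 and 11.56 in Ikaros libraries at 24 h, a 1.77-fold fall (-0.83 ± 0.15, adjusted p = 2.6e-05). It was also lower at 18 h (-0.52 ± 0.15, adjusted p = 0.00406), a call that was lost without replicate 1 (adjusted p = 0.0681) or replicate 2 (0.136). Chd5 was near the bottom of the table, above 3.76% of all genes in control cells at 0 h. It was called at 18 h alone, with 6.60, 5.78 and 7.07 in control and 4.89, 5.15 and 4.77 in Ikaros libraries (-1.55 ± 0.44, adjusted p = 0.00407). The control libraries differed widely at that time, and the Ikaros libraries lay below all of them.

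Each line was next set against its own 0 h, to ask in which line the levels had moved. In Ikaros cells Chd3 and Mta3 were higher than at 0 h at 2, 6 and 12 h, 2 of 10 members each time, beside 19.2%, 32.8% and 46.1% of all genes called. At 18 h 5 members were called (Chd3, Mta3 and Hdac1 higher, Hdac2 and Gatad2a lower) beside 54.6% of all genes, and at 24 h 5 (Chd3 and Mta3 higher, Hdac2, Mbd3 and Gatad2a lower) beside 60.6%. By 24 h Chd3 had risen by 1.50 ± 0.11 and Mta3 by 0.60 ± 0.10, whereas Hdac2 was at -0.66 ± 0.15, Gatad2a at -0.43 ± 0.12 and Mbd3 at -0.31 ± 0.08. Without any of the replicates 1 member, Mta3, was left at 2 h, and at 18 h 3, 2 and 3 were left without replicates 1, 2 and 3, with Chd3 and Mta3 in each. For Chd4 at 18 h the difference from 0 h was -0.17 ± 0.10 in Ikaros cells and 0.24 ± 0.10 in control cells, neither of them called (95% intervals from -0.38 to 0.04 and from 0.03 to 0.45). At 24 h Chd4 was at -0.05 ± 0.10 in Ikaros cells. In control cells limma called 0 of 10 at every time, with 0, 1, 0, 1 and 0 members at an unadjusted p under 0.05 at 2, 6, 12, 18 and 24 h. The background there was 0.047%, 5.1%, 0.0549%, 0.478% and 0.47% of all genes. When the fit held culture batches as a replicate block, 1 member was called in control cells at 6 h.

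The change of the Ikaros minus control difference from 0 h, which sets aside what the lines already differed in, was called for fewer members than the difference itself. At 2 h limma called 0 of 10, with 2 at an unadjusted p under 0.05, beside 3.1% of all genes. With separate blocks for the 0 h cultures 1 was called at 2 h and 2 at 6 h. At 6 h Chd3 was called (15.9% of all genes), at 12 h Chd3 and Mta3 (29.7%), at 18 h Chd3, Chd4 and Hdac2 (43.0%), and at 24 h Chd3, Mta3, Hdac2 and Gatad2a (48.4%). A moderated F test over the 5 changes called 6 of 10 (Chd4, Chd3, Hdac2, Mta3, Mbd3 and Gatad2a) beside 59.8% of all genes, and 2, 1 and 4 without replicates 1, 2 and 3, with Chd3 in each. Without replicate 2 the change was called for 1 member at 18 h and 1 at 24 h, and without replicate 1 for 2 at 24 h. Hdac1, Mta1, Mta2 and Rbbp4 were not called in this way at any time.

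The balance between the mRNAs of paralogs was then taken within each library, as the log2 level of one gene minus that of its paralog. It does not depend on a scaling common to all genes of a library. The correction for GC content and length can still enter it where paralogs differ in these. Removal of a GC and length trend was not applied to the pairs. Over 12, 18 and 24 h, 7 of 8 paralog pairs passed the test of a shift between the lines. No share over pairs of other genes was computed to set beside this count, the 3 Mta pairs share their genes, and between 45.8% and 62.9% of single genes were called at these times. Chd4 exceeded Chd3 by 2.25 ± 0.13 (SD, n = 9) in control libraries and by 0.32 ± 0.24 in Ikaros libraries, a shift of -1.93. An exact permutation test with line labels exchanged within each time gave two-sided p = 0.00025 (adjusted over the 8 pairs p = 0.0005). That p is the smallest that its 8000 assignments allow. Within a batch and line, cells for these times came from the same expansion, so the 9 libraries per line are not independent. The test treats them as independent, so its p-values may be too small. The SDs also hold the change over these times. By 24 h the excess of Chd4 over Chd3 was between 2.03 and 2.27 in control libraries and between 0.07 and 0.18 in Ikaros libraries. The mRNAs of the ATPases had thus come to nearly equal levels on the adjusted scale, and protein was not examined. This pair did not overlap between the lines at 0 h either, at 1.93 to 2.25 in control against 1.53 to 1.90 in Ikaros libraries. Hdac1 minus Hdac2 (1.06 to 1.15 against 1.17 to 1.32) and Mta1 minus Mta2 (-0.68 to -0.33 against -0.25 to -0.13) did not overlap at 0 h either. The other pairs overlapped there.

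Hdac1 exceeded Hdac2 by 0.99 ± 0.23 in control and 1.90 ± 0.21 in Ikaros libraries over these times, a shift of 0.91 (exact permutation p = 0.00025, adjusted p = 0.0005). Mbd3 stood 0.33 ± 0.06 above Mbd2 in control libraries, and in Ikaros libraries the order was turned to -1.25 ± 0.40 (exact permutation p = 0.00025, adjusted p = 0.0005). The excess of Rbbp4 over Rbbp7 went from 0.33 ± 0.09 to 1.14 ± 0.34 with the same p. Gatad2a minus Gatad2b was 2.20 ± 0.44 in control and 0.99 ± 0.42 in Ikaros libraries (exact permutation p = 0.0005, adjusted p = 0.000667). Mta3 gained on both of its paralogs, by 0.45 on Mta1 (exact permutation p = 0.0005, adjusted p = 0.000667) and by 0.54 on Mta2 (exact permutation p = 0.0015, adjusted p = 0.00171). The shift against Mta2 had an adjusted p = 0.0529 in the exact permutation test without replicate 1. Mta1 minus Mta2 was -0.37 ± 0.24 in control and -0.28 ± 0.20 in Ikaros libraries, a shift of 0.09 that did not pass (exact permutation p = 0.399).

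**Figure D3:**
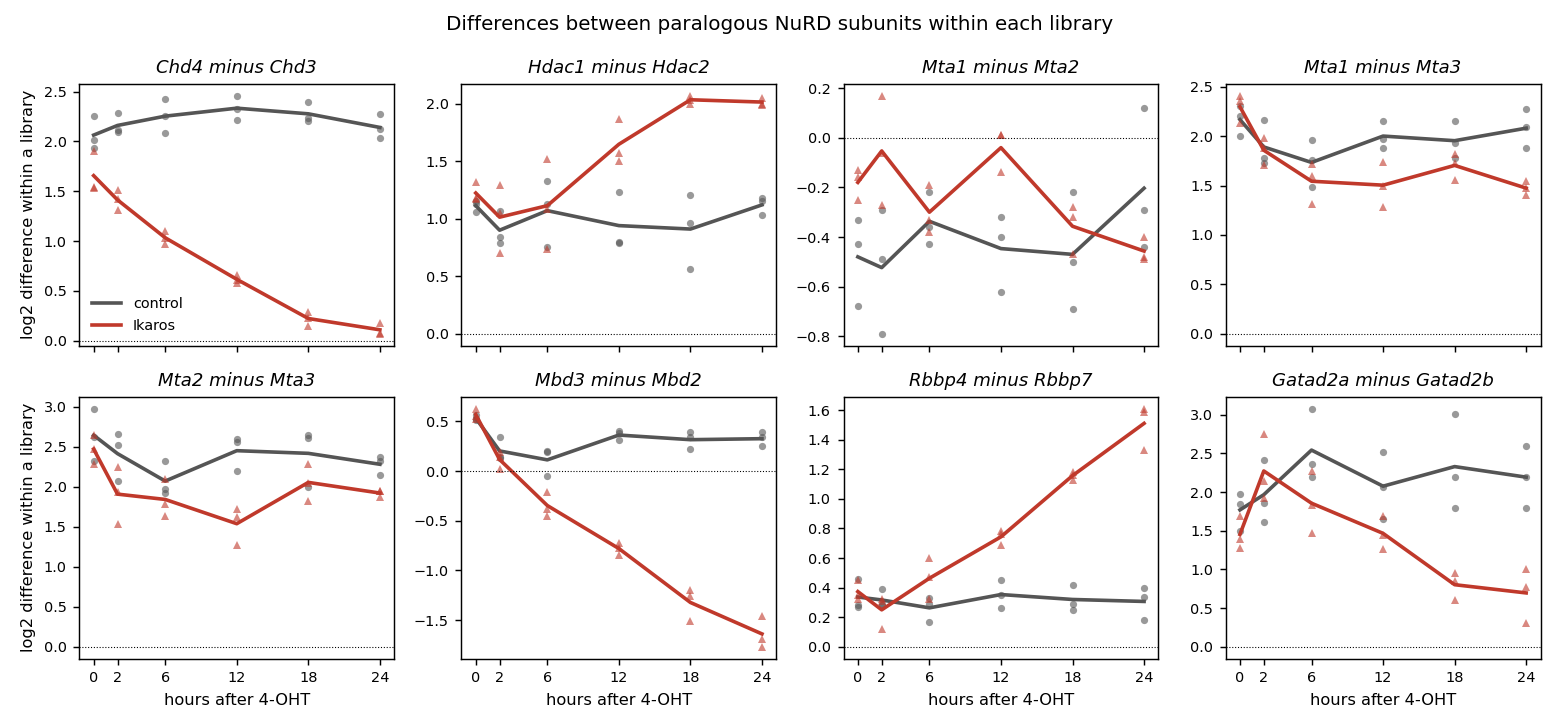
Within-library log2 difference of 8 paralog pairs (vertical axes, scaled by panel, dotted line at 0) against hours after 4-OHT, with control libraries as grey circles, Ikaros libraries as red triangles and means as lines, n = 3. Chd4 minus Chd3 falls in Ikaros cells to a mean of 0.11 at 24 h against 2.14 in control cells, and Mbd3 minus Mbd2 crosses 0 to reach -1.64.

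In the order of levels among the 15 subunits, Chd4, Rbbp4, Mta2 and Rbbp7 led in both lines at 0 h, with means of 15.78, 15.33, 15.07 and 15.00 in control cells. The SDs of Mta2 (0.12) and Rbbp7 (0.08) were larger than their gap. Chd3 held rank 9 and Mbd2 rank 10 in both lines at 0 h. In Ikaros cells at 24 h the order was Chd4 (15.58), Chd3 (15.47), Rbbp4 (15.35), Mbd2 (15.31) and Mta2 (15.14), in which Rbbp4 and Mbd2 differed by less than the SD of Mbd2 (0.15). Rbbp7 had gone from rank 4 to rank 9. Hdac2, at 12.35, was above 60.9% of all genes there, against 72.0% in the same cells at 0 h.

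Genes of other chromatin complexes were counted beside NuRD at 24 h, when the median difference over all genes was -0.01, 31.0% of all genes were called higher and 31.9% lower. The lists are small and were not tested against these shares. The 10 members had 3 higher and 4 lower with a median of 0.07, and the 5 further NuRD subunits 2 higher and 2 lower with a median of -0.74. In the Sin3 complex, which shares Hdac1, Hdac2, Rbbp4 and Rbbp7 with NuRD, 7 of 15 further subunits were higher and 2 lower (median 0.02), and Arid4a (1.32 ± 0.18) and Ogt, the O-GlcNAc transferase (1.12 ± 0.14), had the largest called differences. In the CoREST complex, built around the demethylase Kdm1a with the same deacetylases, 4 of 9 were higher and 2 lower (median 0.21). There the scaffold Rcor2 fell, at -1.09 ± 0.12. Of the NCoR and CtBP corepressors, Ikaros partners or Hdac3 partners, 3 of 8 were higher and 1 lower (median 0.02), and Gps2 was higher by 0.36 ± 0.14.

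Of the BAF remodelling complexes 13 of 23 genes were higher and 8 lower (median 0.37). Bcl7a was raised by 1.87 ± 0.12, while Dpf1, a subunit typical of neuronal BAF, was at -2.51 ± 0.14. Among the other CHD remodellers and class I deacetylases, 5 of 8 were higher and 1 lower (median 0.76), with Chd9 at 1.61 ± 0.22 and Hdac8 at 1.56 ± 0.16. Of 7 measured zinc finger factors known to bind NuRD, 3 were higher and 2 lower. The higher ones include Ikzf1, which the retrovirus of the Ikaros cells encodes and which already differed by 5.19 ± 0.18 at 0 h. Next to Ikzf1 the largest difference was that of Bcl6, a transcriptional repressor active in B cells, at 4.36 ± 0.38. Adjusted p (limma) was 0.028 for Gps2 and 5.17e-07 or less for the other genes named in these lists.

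**Figure D4:**
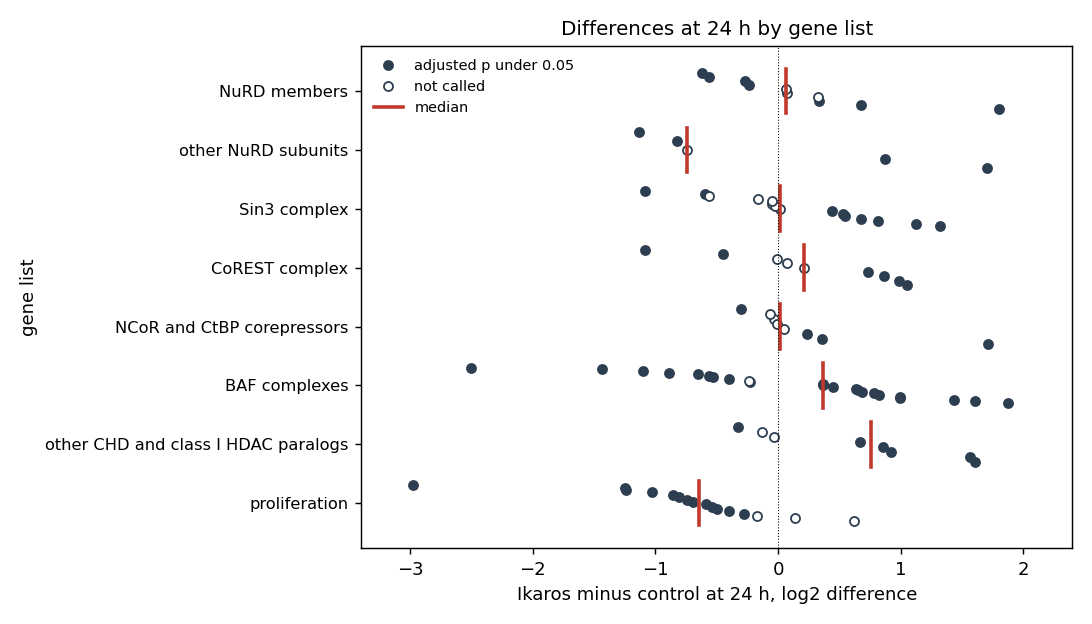
Ikaros minus control log2 difference at 24 h (horizontal axis) for each measured gene of 8 lists (vertical axis), with filled points for adjusted p under 0.05, open points for the rest and a red bar at the median of the list. NuRD members spread from -0.62 to 1.80 around a median of 0.07, and 13 of 16 proliferation genes are lower, with a median of -0.64.

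Proliferation and stage markers moved in the same libraries. Of 16 proliferation genes 13 were lower at 24 h, with Tyms, the thymidylate synthase, at -2.97 ± 0.15 and Ccnb1, the mitotic cyclin B1, at -1.25 ± 0.14. The mean of these genes lay between 15.27 and 15.48 in control libraries at 24 h and between 14.60 and 14.73 in Ikaros libraries. At 18 h 2 of the 16 were higher and 4 lower, with differences down to -2.41 and a median of 0.08, and the library means overlapped, from 15.16 to 15.53 in control and from 15.16 to 15.25 in Ikaros libraries. Of 12 pre-B markers 8 were higher and 2 lower at 24 h, with differences from -3.96 to 5.19. The higher ones were led by the recombinase gene Rag1 (5.19 ± 0.29) and the adaptor Blnk (4.14 ± 0.19). Of the 2 measured myeloid markers Itgam differed by 4.24 ± 0.54 and Lyz2 by -2.94 ± 0.56, both at low levels, with means from 4.68 to 9.35. The 3 measured erythroid markers had differences from 0.24 to 0.57 at 24 h that did not pass the test. The part of proliferation and of cell stage in the differences of the NuRD genes was not tested.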

How the data were processed

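Stranded mRNA-seq of 36 libraries was analysed. Per the study's methods and the submitters' processing notes, the authors trimmed reads, aligned them to mm10 with TopHat2, counted genes with HTSeq, normalised with cqn for GC content and length, and applied a non-parametric ComBat for library preparation. The values deposited are on the log2 scale, with a constant added so that the lowest value is 1. Batch adjustment before deposition may make standard errors too small. No count was used, so precision rests on n = 3 per group. Strand setting and tool versions are not given in the sources used here.

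Groups came from the labels. One limma 3.58.1 model (R 4.3.3) with 1 mean per group (12 groups) was fitted to all 12762 genes. P-values are two-sided, adjusted by Benjamini-Hochberg over all genes and called under 0.05. Replicates are separate cultures of 1 transduced population per line, so p-values measure the spread between cultures. The labels give the same culture batch number to control and Ikaros cultures, which pairs them. Deviations from group means correlated between -0.0620 and 0.507 over 18 pairs, with 12 above 0.1. Paralog pairs were tested by exact permutation within each time, which treats libraries of the same culture batch at different times as independent. Positions are from GENCODE release 21 (GRCm38), which held 98.7% of the gene identifiers. The fit was tested on simulated data.

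The members, lists and tests were chosen with earlier results of these data known. Named genes were all members, all further NuRD subunits, Ikzf1, and from each other list the 2 with the largest 24 h differences among called genes without overlap. Cd79a was chosen after its value was seen. Some genes that the rule names are not reported here. Alternatives were the replicate block, the same with separate 0 h blocks, a filter at the 25th percentile (9571 genes), quantile normalisation, eBayes with trend and robust settings, fits of the compared groups alone, and leaving out each replicate. Removal of a GC and length trend (12592 genes) was added after the data were seen.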

Additional observations from a re-analysis of the deposited data

Results flagged for a closer look

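The Ikaros minus control difference changed from its value at 0 h for 9 of the 15 NuRD subunit genes, called at 1 or more times by the interaction term in limma. Of all genes, between 3.1% (2 h) and 48.4% (24 h) were called at single times, and 59.8% by the F test over the 5 changes. The share of all genes called at any of these times was not computed. For the subunits the change is given here at the time where it was largest among called times. Among the remodellers it was 1.55 ± 0.15 (SE) for Chd3 at 24 h (adjusted p = 3.16e-09), -0.41 ± 0.14 for Chd4 at 18 h (adjusted p = 0.0210) and -1.80 ± 0.63 for Chd5 at 18 h (adjusted p = 0.0220), the last at a level near the bottom of the table. Hdac2 changed by -0.88 ± 0.21 at 18 h (adjusted p = 0.00163). Mta3 changed by 0.74 ± 0.14 at 12 h (adjusted p = 0.000166). Gatad2a changed by -0.48 ± 0.17 at 24 h (adjusted p = 0.0203). Mbd2 had the largest rise, 1.78 ± 0.17 at 24 h (adjusted p = 1.92e-09). Rbbp7 changed by -1.18 ± 0.10 at 24 h (adjusted p = 5.54e-10) and Cdk2ap1 by -0.84 ± 0.21 at 24 h (adjusted p = 0.00156). Leaving out replicate 2 took away the calls of Chd4 (-0.27, adjusted p = 0.400), Hdac2 (-0.77, adjusted p = 0.0704) and Cdk2ap1 (-0.59, adjusted p = 0.149), and leaving out any replicate took away those of Gatad2a (adjusted p from 0.0727 to 0.101) and Chd5 (adjusted p from 0.0696 to 0.0925). Libraries at 0 h were collected on other occasions than the later ones, so the change with time and the change of occasion cannot be told apart.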

How the results depend on the processing

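Of 90 single subunit differences between the lines 43 were called. Of these 43, 0 changed sign in any alternative, 24 were called in every alternative and 19 lost the call in at least 1. Fitting only the groups compared left 0, 1 and 2 members called at 0, 2 and 6 h, and 0 for Ikaros cells at 2 h against their own 0 h. Removing a GC and length trend left 0 at 0 h. The replicate block called 1 member in control cells at 6 h against 0 h, and with separate 0 h blocks 1 and 2 members changed their difference at 2 and 6 h. It changed no other count of members by more than 1.5 times and no paralog call. Leaving out a replicate gave 0 to 0 members called at 0 h, 2 to 5 at 6 h, 5 to 7 at 18 h and 4 to 6 at 24 h. It gave 1 to 2 for the change from 0 h at 6 h, 1 to 4 at 18 h, 1 to 3 at 24 h and 1 to 4 in the F test. For Ikaros cells against their own 0 h it gave 1 to 1 at 2 h and 2 to 3 at 18 h. Shares of all genes called in the alternative fits are not given beside these counts. With a replicate left out, the shift between the lines (Ikaros minus control) in Mta2 minus Mta3 ranged from -0.68 to -0.45. The shift in Mta1 minus Mta2 ranged from -0.01 to 0.22.

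Differences that were not called turned sign in some settings. Leaving out a replicate gave -0.13 to 0.04 for Chd4 at 2 h, -0.06 to 0.07 for Mta2 at 0 h, -0.01 to 0.05 at 12 h and -0.09 to 0.30 at 18 h, -0.07 to 0.00 for Mbd3 at 0 h, -0.06 to 0.05 for Rbbp4 at 2 h, -0.03 to 0.03 at 12 h and -0.01 to 0.15 at 24 h, -0.13 to 0.00 for Mbd2 at 0 h, -0.06 to 0.68 for Gatad2b at 12 h, -0.03 to 0.08 for Rbbp7 at 0 h and -0.05 to 0.00 at 6 h, -0.07 to 0.17 for Cdk2ap1 at 0 h, and -0.31 to 0.31 for Chd5 at 2 h. With the GC and length trend removed they were Mta2 at 12 h (-0.04), Mbd3 at 0 h (0.02), Rbbp4 at 2 h (0.04) and Rbbp7 at 6 h (0.06), and with quantile normalisation Chd5 at 2 h (0.15). The filter removed Chd5. The cause of these moves was not tested, and the fits without a replicate hold fewer libraries.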
